A study of Homo sapiens with 15 samples.

Results

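The 9 enzymes described here make serine and glycine and move 1-carbon units between forms of folate. They are PHGDH, PSAT1, PSPH, SHMT1, SHMT2, MTHFD1, MTHFD2, MTHFD1L and ALDH1L2, and they were taken by symbol from a table of 25737 listed genes. Each symbol had 1 row. The enzymes were selected on their levels in the same libraries as well as on their pathway, since results of these groups were known, so their own differences between groups are given as a description and without a test. Expression was measured in U87MG cells, an established human line derived from a malignant glioma. Cells received lentivirus 24 h before collection, in 5 groups of 3 libraries: a GFP control virus (genotype label control) and viruses labelled for overexpressing 1 gene of the ID family, ID1 to ID4. All groups carried a lentivirus, and no untransduced cells were included. The cells of all groups come from 1 line, and nothing in the labels says whether the 3 libraries of a group were separate cultures, so the spread between them may be technical.

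Serine is built from the glycolytic intermediate 3-phosphoglycerate in 3 steps, by PHGDH, PSAT1 and PSPH in that order. The serine hydroxymethyltransferases then split serine into glycine and a 1-carbon unit that is held by tetrahydrofolate. SHMT2, MTHFD2, MTHFD1L and ALDH1L2 handle folate-bound carbon in mitochondria, and SHMT1 and MTHFD1 do so in the cytosol. The units are used to make purines, thymidylate and methionine, and proliferating tumour cells often rely on the mitochondrial arm.

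Levels are given as CPM, the count scaled to a common library total, from libraries that tag the 3′ end of transcripts. The library totals were 11089044 to 15148979 counts, and a floor of 3 counts, which covers counting error only, was 0.198 to 0.271 CPM. The labels were checked against the ID genes. The ID4 gene had 0 to 2 counts in GFP libraries and 2479 to 3110 counts in libraries labelled ID4, and the ID3 gene was at 221 ± 8.33 CPM (SD, n = 3) with GFP and 313 ± 11.4 CPM with the ID3 label. With the ID2 label the ID3 gene was at 287 ± 27.8 CPM, which overlapped with the ID3 label, so its level does not single out that label. The ID1 gene, at 344 ± 6.96 CPM with GFP, was at 250 ± 3.60 CPM with the ID1 label, and the ID2 gene, at 85.7 ± 2.81 CPM with GFP, was at 44.9 ± 1.28 CPM with the ID2 label. The ID2 gene was also below GFP with the ID1, ID3 and ID4 labels, at 34.3, 46.7 and 35.9 CPM. Neither ID1 nor ID2 was thus higher than GFP with its own label, so every group is named by its label only. Libraries that tag the 3′ end may miss a vector transcript, which was not tested. Of the glial markers GFAP, S100B and SOX2 had 0 to 4 counts and OLIG2 had 2 to 11 counts, while VIM was at 3481 to 4765 CPM, CD44 at 493 to 616 CPM and NES at 223 to 394 counts. CDKN2A, which is deleted in this line, had 0 counts in all 15 libraries. Among markers of other cell types, PTPRC, PECAM1, EPCAM and RBFOX3 summed to 0.46 to 1.73 CPM per library. CD68, also on that list, was not low, at 49.0 to 73.4 CPM, and is described below.

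Across the 5 group means PSAT1 ranged over 2.08 on the log2 scale of CPM, PHGDH over 1.71 and ALDH1L2 over 1.06, the widest of the 9. PSAT1, the aminotransferase of the pathway's middle step, lies on the plus strand of chromosome 9 (chr9:80912041-80945009, GRCh37). The sequences upstream of the start sites are shown here because the 6 enzymes with a promoter entry in the RefSeq table (GRCh38.p14 starts, 250 bases before to 50 after) include enzymes whose libraries were below GFP with every label and enzymes whose libraries were not. Each window matched GRCh37 exactly at 1 place, and the coordinates are GRCh37. CCAAT, searched on both strands, was the motif found in all 6, and it stands in capitals, as ATTGG where it lies on the other strand. The PSAT1 stretch covers the 150 bases before the start (chr9:80911891-80912040, plus strand) and the SHMT1 stretch the bases from -163 to -14 (chr17:18266878-18267027, minus strand, written 5′ to 3′ along the gene). The stretches of PHGDH (chr1:120254475-120254504) and MTHFD2 (chr2:74425657-74425686), both on the plus strand, span 30 bases around 1 match.
PSAT1: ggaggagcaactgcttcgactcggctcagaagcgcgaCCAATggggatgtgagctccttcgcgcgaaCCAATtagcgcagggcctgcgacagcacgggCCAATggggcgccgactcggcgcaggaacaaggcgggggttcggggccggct
SHMT1: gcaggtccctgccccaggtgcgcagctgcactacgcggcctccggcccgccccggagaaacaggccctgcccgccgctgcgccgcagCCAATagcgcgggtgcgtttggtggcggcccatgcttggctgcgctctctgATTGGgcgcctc
PHGDH: agtatttccgtCCAATcaaaaggagactgt
MTHFD2: tgcggcagggaCCAATgggtggcggaggga

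CCAAT was searched after these sequences had been read, and 34.6% of the 35116 RefSeq windows of the same length held it. The other motifs were searched on both strands. The core TGATGNAA of the element bound by ATF4 with C/EBP factors was in 3.62% of all windows and, of the 6 enzymes, in MTHFD1L alone. The E-box CACGTG was in 7.26% of windows and in MTHFD1 and MTHFD1L. The cAMP response element TGACGTCA was in 1.85% of windows and in 0 of the 6 enzymes. MTHFD1L had 4 windows, of which 3 overlap and held the same single match to TGATGNAA, to CACGTG and to CCAAT, while the other window held none of the 4 motifs. The 30 bases at chr6:151187482-151187511 on the plus strand are shown for MTHFD1L, with its TGATGNAA match (chr6:151187493-151187500) in capitals.
MTHFD1L: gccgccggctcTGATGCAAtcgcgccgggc

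A match of letters in these windows is a description and not a binding site. The windows of PSAT1, PHGDH, MTHFD2 and SHMT1 held neither TGATGNAA nor CACGTG, and the first 3 of these enzymes were below GFP with every label while SHMT1 was not. With 6 enzymes nothing is read from where the motifs lay.

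PSAT1 was at 90.5, 84.4 and 77.7 CPM in the GFP libraries. It was at 28.7, 29.4 and 25.1 CPM with the ID1 label, 18.3, 20.2 and 19.99 CPM with ID2, 28.7, 27.2 and 24.5 CPM with ID3, and 27.5, 27.2 and 24.8 CPM with ID4. Every GFP library lay above every ID-labelled library, and the 3 ID2 libraries lay below all other libraries. The fitted log2 fold change against GFP was -1.61 ± 0.08 (SE) with ID1, -2.09 ± 0.08 with ID2, -1.67 ± 0.08 with ID3 and -1.67 ± 0.08 with ID4. Of 12870 tested genes, 19 had a lower fitted change than PSAT1 with the ID1 label, 25 with ID2, 14 with ID3 and 17 with ID4.

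PHGDH, which oxidizes 3-phosphoglycerate in the pathway's entry step, lies on chromosome 1 (chr1:120191034-120286841, plus strand). It was at 74.4, 72.6 and 65.7 CPM with GFP. It was at 34.0, 28.3 and 31.5 CPM with the ID1 label, 19.5, 20.98 and 23.7 CPM with ID2, 29.2, 33.5 and 29.5 CPM with ID3, and 34.7, 35.1 and 33.5 CPM with ID4. As with PSAT1, the groups fell in 3 tiers, with GFP highest, the ID2 label lowest, and the ID1, ID3 and ID4 labels between them. Its log2 fold change against GFP was -1.20 ± 0.08 (SE) with ID1, -1.71 ± 0.09 with ID2, -1.22 ± 0.09 with ID3 and -1.04 ± 0.08 with ID4.

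PSPH, the phosphatase that releases serine, lies on chromosome 7 (chr7:56078744-56119297, minus strand). Its 3 GFP libraries were at 29.2, 26.3 and 21.2 CPM. It was at 19.9, 17.6 and 18.4 CPM with ID1, 14.2, 15.6 and 19.3 CPM with ID2, 16.6, 17.1 and 18.1 CPM with ID3, and 20.2, 17.9 and 18.3 CPM with ID4. GFP did not overlap with any ID label, while the ID labels overlapped one another. The lowest GFP library stood close to the highest ID4 library, and the GFP libraries spread widely (25.5 ± 4.04 CPM, SD, n = 3). The log2 fold changes were -0.47, -0.63, -0.59 and -0.44 for ID1 to ID4, each with an SE of 0.12, so the last enzyme of the path differed less than the other two.

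**Figure D1:**
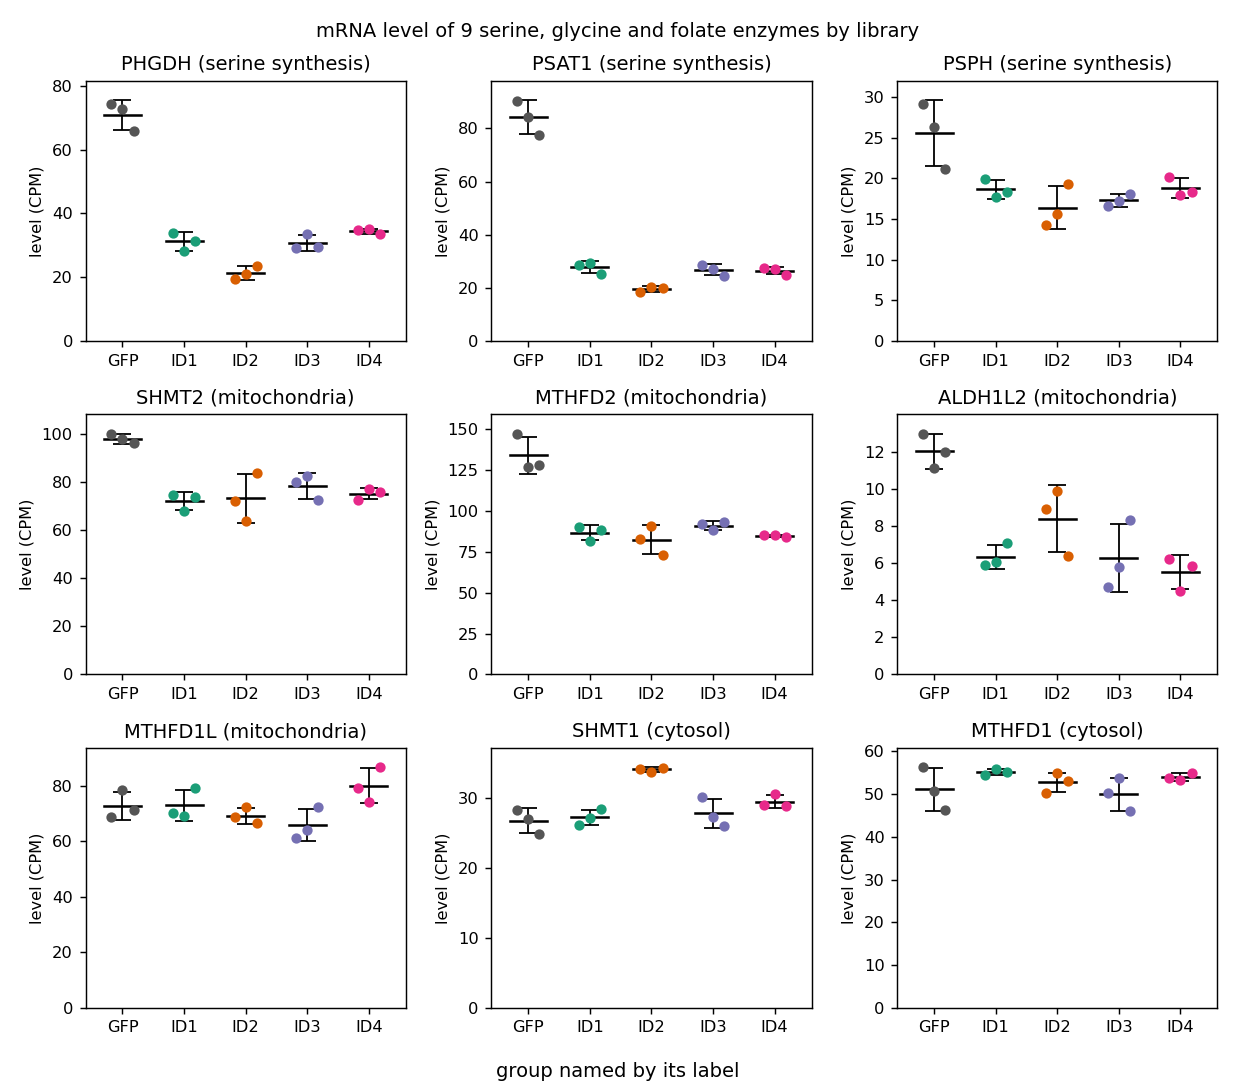
Level in CPM of the 9 enzymes by group, with 1 point per library and black lines for the group mean ± SD (n = 3), each vertical axis starting at 0. In the panels of PHGDH, PSAT1, PSPH, SHMT2, MTHFD2 and ALDH1L2 all 3 GFP points lie above all ID-labelled points, and in the SHMT1 panel the 3 ID2 points (33.8 to 34.4 CPM) lie above all others.

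PHGDH and PSAT1 counts did not keep 1 ratio. PHGDH counts per PSAT1 count were 0.822 to 0.861 with GFP and 0.959 to 1.35 with the ID labels. The ratio was therefore higher in every ID-labelled library, since PSAT1 was lower by more than PHGDH.

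In the mitochondrial arm, 3 of the 4 enzymes were lower with every ID label and MTHFD1L was not. SHMT2, which turns serine into glycine in mitochondria, lies on chromosome 12 (chr12:57623356-57628718, plus strand). It was at 100.3, 98.2 and 96.2 CPM with GFP, 74.8, 68.1 and 73.8 CPM with ID1, 72.1, 63.8 and 84.1 CPM with ID2, 80.2, 82.7 and 72.6 CPM with ID3, and 72.7, 77.5 and 75.9 CPM with ID4. The GFP libraries lay above all others, and the 4 ID labels overlapped one another. The log2 fold changes were -0.46, -0.41, -0.34 and -0.39 for ID1 to ID4, each with an SE of 0.08. The surrounding genes stood the other way: the median log2 change of the 184 tested genes within 10 Mb of SHMT2 was 0.21, 0.27, 0.21 and 0.27.

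MTHFD2, the mitochondrial dehydrogenase and cyclohydrolase, lies on chromosome 2 (chr2:74413299-74444692, plus strand). It was at 147, 127 and 128 CPM with GFP, 90.1, 81.4 and 88.4 CPM with ID1, 83.0, 90.9 and 73.0 CPM with ID2, 92.0, 88.0 and 92.9 CPM with ID3, and 85.3, 84.9 and 83.9 CPM with ID4. No ID-labelled library reached 100 CPM, and the 4 labels were close to one another. The log2 fold changes were -0.65, -0.69, -0.58 and -0.67, each with an SE of 0.07. The pseudogene MTHFD2P1 had a row of its own with 0 to 1 counts.

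ALDH1L2, which oxidizes 10-formyltetrahydrofolate in mitochondria, lies on chromosome 12 (chr12:105413562-105501421, minus strand) and had the fewest counts of the 9. Its counts were 184, 134 and 143 with GFP and 50 to 143 in the ID-labelled libraries, so its changes are the least precise. It was at 12.96, 11.1 and 11.97 CPM with GFP, 5.88, 6.05 and 7.09 CPM with ID1, 8.89, 9.90 and 6.37 CPM with ID2, 4.71, 5.76 and 8.30 CPM with ID3, and 6.21, 4.51 and 5.83 CPM with ID4. Groups with ID labels stood below GFP but varied widely within ID2 and ID3. The log2 fold changes were -0.94 ± 0.18 (SE), -0.50 ± 0.18, -0.97 ± 0.18 and -1.12 ± 0.19 for ID1 to ID4. Without ID2 library 3 the value for ID2 was -0.35. The 106 tested genes within 10 Mb of ALDH1L2 had a median log2 change of 0.065, -0.124, -0.007 and 0.038 for ID1 to ID4. The 633 tested genes on chromosome 12 had 0.175, 0.196, 0.145 and 0.188.

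MTHFD1L, the mitochondrial formyltetrahydrofolate synthetase, lies on chromosome 6 (chr6:151186815-151423023, plus strand). It was at 68.7, 78.4 and 71.5 CPM with GFP and between 61.2 and 86.8 CPM in the 12 ID-labelled libraries. GFP overlapped with each ID label, and the log2 fold changes were -0.01, -0.06, -0.17 and 0.14, each with an SE of 0.08. The 68 tested genes within 10 Mb had a median change of 0.23, 0.26, 0.22 and 0.29, so MTHFD1L stood below its neighbourhood with all 4 labels.

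The cytosolic folate enzymes SHMT1 and MTHFD1 did not share the lower levels. SHMT1, the cytosolic counterpart of SHMT2, lies on chromosome 17 (chr17:18231174-18266877, minus strand). It was at 28.4, 27.1 and 24.9 CPM with GFP, 26.2, 27.1 and 28.4 CPM with ID1, 34.3, 33.8 and 34.4 CPM with ID2, 30.1, 27.4 and 26.1 CPM with ID3, and 28.99, 30.6 and 28.9 CPM with ID4. The ID2 libraries lay above all others, and the ID4 libraries lay above GFP by a narrow margin. The log2 fold change was 0.36 ± 0.07 (SE) with ID2 and 0.01, 0.04 and 0.13 with ID1, ID3 and ID4.

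MTHFD1, the trifunctional folate enzyme of the cytosol, lies on chromosome 14 (chr14:64854749-64930175, plus strand). It was at 56.3, 50.6 and 46.4 CPM with GFP and 46.0 to 55.9 CPM in the ID-labelled libraries, within the GFP range but for 1 library just below it. The log2 fold changes were 0.09, 0.06, -0.05 and 0.08, each with an SE of 0.07.

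**Figure D2:**
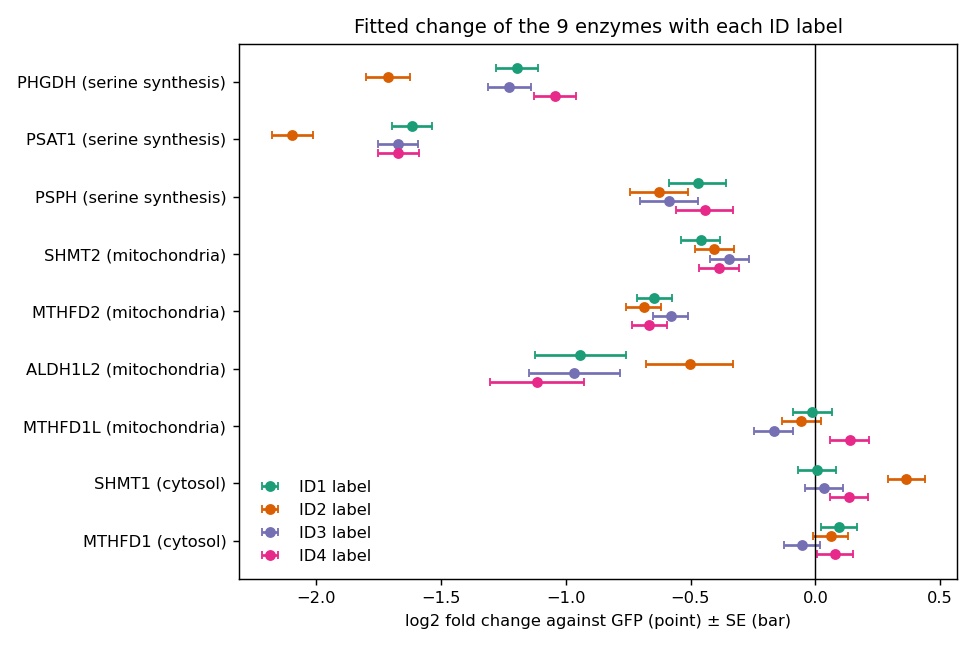
Fitted log2 fold change against GFP (horizontal axis) of the 9 enzymes, with 1 point per ID label and bars of ± SE from the edgeR fit. PSAT1 lies farthest left with every label, PHGDH is at -1.71 with ID2, while MTHFD1L and MTHFD1 lie within 0.17 of 0 and SHMT1 is at 0.36 with ID2.

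Ratios within a library set folate enzymes of mitochondria and cytosol side by side without any scaling between libraries. SHMT2 counts per SHMT1 count were 3.53 to 3.86 with GFP and 1.89 to 3.02 with the ID labels, with no overlap. MTHFD2 counts per MTHFD1 count were 2.51 to 2.77 with GFP and 1.38 to 2.02 with the ID labels, also with no overlap. MTHFD1L counts per MTHFD1 count were 1.22 to 1.55 with GFP and 1.19 to 1.58 with the ID labels, which overlapped. A ratio gives unequal levels within a library only and does not say that either gene was level. The enzymes were chosen with these levels known, so nothing is read from the lack of overlap.

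**Figure D3:**
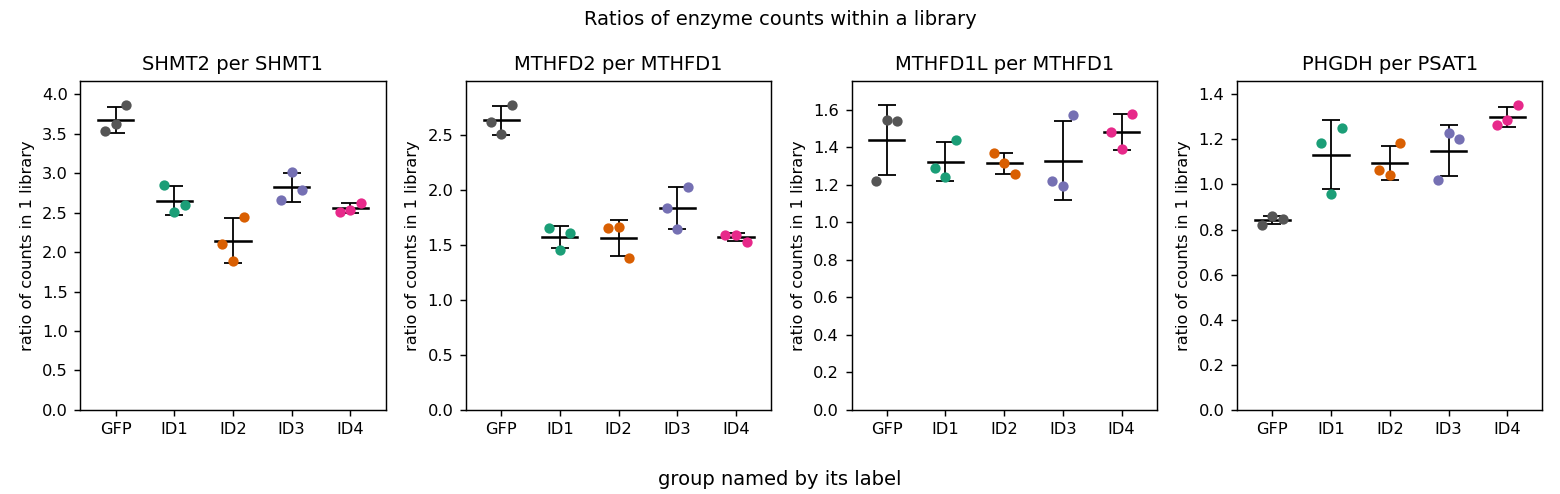
Ratio of the counts of 2 enzymes in the same library (vertical axis, from 0) by group, with 1 point per library and lines for the group mean ± SD (n = 3). SHMT2 per SHMT1 and MTHFD2 per MTHFD1 are highest in GFP, MTHFD1L per MTHFD1 overlaps between groups, and PHGDH per PSAT1 is lowest in GFP at 0.822 to 0.861.

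Counted over the list, all GFP libraries lay above all libraries of each ID label for 6 of 9 enzymes, PHGDH, PSAT1, PSPH, SHMT2, MTHFD2 and ALDH1L2. The same lack of overlap on the lower side held for 16.1%, 21.8%, 17.8% and 17.6% of tested genes with ID1 to ID4, and for 6.15% with all 4 labels. SHMT1 had no overlap with GFP on the higher side with ID2 (20.5% of tested genes) and ID4 (19.5%). The direction of the 6 was known when the list was made, so nothing is read from these counts. The median log2 change of the 9 enzymes was -0.47, -0.50, -0.58 and -0.44 for ID1 to ID4, where the median of all tested genes was 0.00 for each. The 4 comparisons share the same 3 GFP libraries and are not independent of each other. GFP library 1 was the highest GFP library for 8 of the 9 enzymes, and without it the log2 changes for ID1 to ID4 were -1.57, -2.05, -1.62 and -1.63 for PSAT1 and -0.37, -0.53, -0.49 and -0.35 for PSPH. For ALDH1L2 they were -0.89, -0.46, -0.92 and -1.07.

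**Figure D4:**
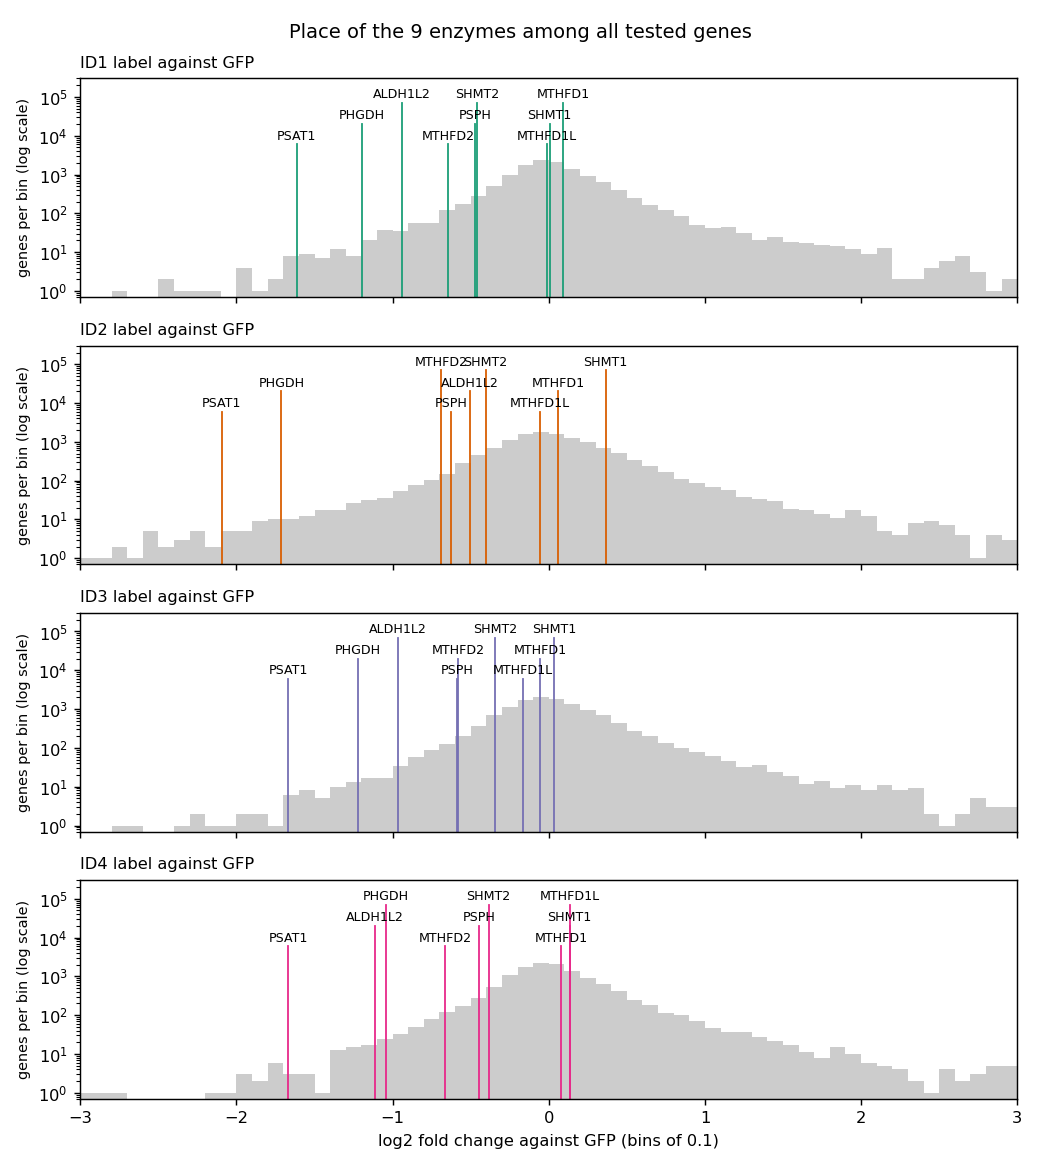
Number of tested genes (vertical axis, log scale) per bin of log2 fold change against GFP (horizontal axis, bins of 0.1, shown from -3 to 3) for each ID label, with vertical lines at the 9 enzymes, whose heights only separate the names. PSAT1 lies in the lower tail in all 4 panels, at -1.61, -2.09, -1.67 and -1.67, and SHMT1, MTHFD1 and MTHFD1L lie near the centre except SHMT1 with ID2 at 0.36.

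The ID labels were also set against one another, to see where 1 label stood apart. Between ID2 and ID1 the log2 change (ID2 minus ID1) was -0.52 for PHGDH, -0.48 for PSAT1, 0.36 for SHMT1 and 0.44 for ALDH1L2. Between ID3 and ID2 (ID3 minus ID2) it was 0.49 for PHGDH, 0.42 for PSAT1, -0.33 for SHMT1 and -0.46 for ALDH1L2. Between ID4 and ID2 (ID4 minus ID2) it was 0.67 for PHGDH, 0.42 for PSAT1, -0.23 for SHMT1 and -0.61 for ALDH1L2. The ID2 libraries thus had the least PHGDH and PSAT1 and the most SHMT1 of the 4 labels. Of 12870 tested genes, edgeR called 2398 between ID2 and ID1, 1935 between ID3 and ID2 and 2394 between ID4 and ID2. Nothing particular to these enzymes is therefore read from their place with ID2.

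MTHFD1L had a log2 change of 0.30 between ID4 and ID3 (ID4 minus ID3), with 61.2, 64.0 and 72.3 CPM with ID3 and 79.4, 74.1 and 86.8 CPM with ID4. Both groups overlapped with GFP, and edgeR called 1450 of the 12870 tested genes between ID4 and ID3.

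Other measures moved with the ID2 label. The 57 tested genes within 10 Mb of PHGDH had a median log2 change of -0.26 with ID2 and of -0.06, -0.08 and -0.05 with ID1, ID3 and ID4. The 36 within 10 Mb of PSAT1 had a median of -0.15 with ID2 and of 0.06, 0.04 and 0.08 with the other labels, and all 452 on chromosome 9 had -0.14 with ID2 and 0.01 with each of the others. The 105 within 10 Mb of SHMT1 had 0.09 with ID2 and -0.01, 0.01 and -0.01 with the others. The 5 markers of other cell types summed to 70.5 to 75.1 CPM with ID2, 50.7 to 57.1 CPM with GFP, 50.7 to 53.8 CPM with ID1, 56.8 to 66.1 CPM with ID3 and 56.6 to 67.8 CPM with ID4. Nearly all of this was CD68, a lysosomal protein abundant in macrophages that many cell lines also express. Its log2 change by edgeR was 0.47 with ID2 (adjusted p = 1.99e-05), 0.20 with ID3 (0.0455), 0.21 with ID4 (0.0415) and -0.03 with ID1 (0.845). The CD68 call with ID3 was lost under DESeq2 (0.0565) and other alternatives, and that with ID4 when some single libraries were left out, with adjusted p-values over 14 alternatives of 0.0228 to 0.204 and 0.0201 to 0.247. Of the 3 glial markers tested, VIM rose by 0.29 (edgeR adjusted p = 0.000219) and CD44 fell by 0.21 (0.000661) on the log2 scale with ID2. NES fell by 0.41 with ID1 (edgeR adjusted p = 0.00991) and by 0.31 with ID3 (0.0409), and both calls were lost when some single libraries were left out, the call with ID3 also with the replicate block (0.0527) and with library totals alone (0.0519). Over 14 alternatives the adjusted p for NES was 0.00133 to 0.0558 with ID1 and 0.0233 to 0.163 with ID3. PTPRC, the pan-leukocyte marker, had 0 to 8 counts in every library. The part of these shifts in the enzymes' levels was not tested, and in bulk RNA fewer cells of a type and less RNA per cell cannot be told apart.

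Around the 9 enzymes, 44 further genes of the pathway and its uses were listed by function, of which 34 passed the filter on low values. The lists were made with earlier results of these data known, so the p-values below are not free of selection. By the quasi-likelihood test of edgeR, adjusted over all tested genes, 3 fell and 4 rose with ID1, 9 fell and 4 rose with ID2, 3 fell and 1 rose with ID3, and 2 fell and 3 rose with ID4. Over all tested genes 22.1%, 35.1%, 28.6% and 21.6% were called with ID1 to ID4, with 9.73%, 16.7%, 13.5% and 9.51% lower and 12.4%, 18.5%, 15.1% and 12.1% higher. The median log2 change of the 34 genes was -0.03, -0.07, -0.01 and -0.01, near that of all tested genes. CTH was the 1 gene of these that fell with all 4 labels. The share of all tested genes that fell with all 4 was not counted, so nothing is read from this number.

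CTH, which makes cysteine from cystathionine, was at 11.4, 8.70 and 10.4 CPM with GFP and at 3.20 to 7.11 CPM in the ID-labelled libraries, which did not overlap with GFP. Such a lack of overlap on the lower side with all 4 labels held for 6.15% of tested genes. It fell by 1.01 on the log2 scale with ID1 (adjusted p = 0.00108), 1.00 with ID2 (0.000653), 0.85 with ID3 (0.00318) and 0.76 with ID4 (0.0106). Without GFP library 1 the change with ID4 was -0.68 with an edgeR adjusted p of 0.0534 (range over 13 alternatives 8.73e-05 to 0.0534), and CTH counts were only 45 to 162 per library.

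Of the other serine and glycine genes, 8 of 10 were tested, and 4 fell with ID2 and 1 each with ID1 and ID4. Over all tested genes 16.7% fell with ID2, 9.73% with ID1 and 9.51% with ID4. GLYCTK, a kinase of glycerate, had edgeR log2 changes of -0.66 with ID1 (adjusted p = 0.00576), -0.59 with ID2 (0.00761) and -0.74 with ID4 (0.00298), and of -0.29 with ID3 (0.185). SFXN1, the mitochondrial serine carrier, and SRR, the serine racemase, fell with ID2 by 0.28 (edgeR adjusted p = 0.00122) and 0.26 (0.00407) on the log2 scale. With the other 3 labels the values of both genes lay between -0.13 and -0.01 and were not called.

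Of the other folate genes, 12 of 17 were tested. MTHFS, which returns 5-formyltetrahydrofolate to the folate pool, rose with ID1 (log2 change 0.59, edgeR adjusted p = 0.00747) and ID4 (0.55, 0.0135), the latter not without GFP library 1 or ID4 library 3. FOLR3, a secreted folate-binding protein, rose with ID1 (0.93, edgeR adjusted p = 0.00957) and ID2 (0.72, 0.0345), from 21 to 39 counts per GFP library. The call for FOLR3 was lost without GFP library 1 or 3 with either label, without ID1 library 1, and without ID2 library 3. With ID2 it was also lost with only the 2 groups fitted (edgeR adjusted p = 0.0535). SLC46A1, the proton-coupled folate carrier, rose with ID2 (0.47, edgeR adjusted p = 0.0416), with 77 to 117 counts per ID2 library and 58 to 69 per GFP library. Over 13 alternatives its adjusted p was 0.0214 to 0.231, and the call was lost under DESeq2, with only the 2 groups fitted, and without GFP library 1 or 2 or ID2 library 2 or 3. In total 1 of these genes fell with ID2 and 1 with ID3, and 2, 3 and 2 rose with ID1, ID2 and ID4. Over all tested genes 16.7% fell with ID2 and 13.5% with ID3, and 12.4%, 18.5% and 12.1% rose with ID1, ID2 and ID4. The folate gene that fell was TYMS with both labels, with log2 changes of -0.36 with ID2 (edgeR adjusted p = 6.05e-06) and -0.25 with ID3 (0.000597).

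Of the methionine and transsulfuration genes, 8 of 11 were tested. MAT2A, which makes S-adenosylmethionine, rose with ID2 (log2 change 0.17, edgeR adjusted p = 0.0354), ID3 (0.20, 0.0165) and ID4 (0.35, 0.000185). The MAT2A call with ID2 was lost when any of the 3 GFP libraries or ID2 library 3 was left out. It was also lost with only the 2 groups fitted (edgeR adjusted p = 0.0872). The MAT2A call with ID3 was lost without GFP library 1 or ID3 library 2. MTRR, the reductase that keeps methionine synthase active, rose with ID1 (0.47, edgeR adjusted p = 0.00151). Of the 6 purine synthesis genes, all tested, ADSL fell with ID1, ID2 and ID3 by 0.21, 0.25 and 0.43 on the log2 scale (edgeR adjusted p = 0.0201, 0.00362 and 2.16e-05). The ADSL call with ID1 was lost without GFP library 1 or 2 or without ID1 library 1 or 2. It was also lost when all genes with a count were fitted (edgeR adjusted p = 0.0606). GART fell by 0.21 with ID2 (edgeR adjusted p = 0.0404) and ATIC rose by 0.19 with ID1 (0.0365), and both calls were lost under DESeq2 (0.0643 and 0.0681) and when single libraries were left out. Over 14 alternatives the adjusted p was 0.0134 to 0.138 for GART and 0.0162 to 0.145 for ATIC.

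**Figure D5:**
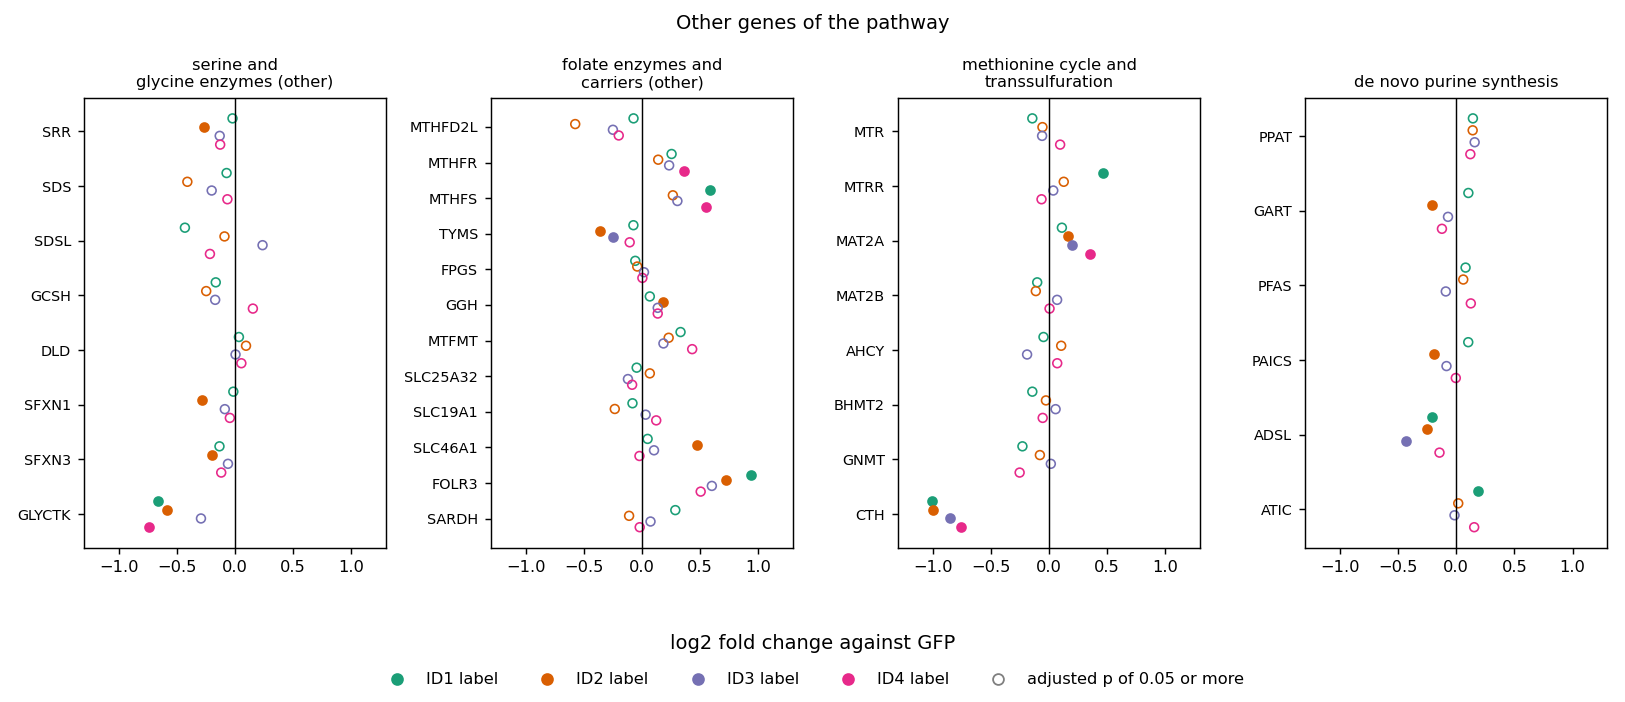
Log2 fold change against GFP (horizontal axis) of the 34 tested pathway genes in 4 lists, with 1 point per ID label, filled where edgeR's adjusted p is under 0.05. Most points lie near 0 and are open, and only CTH (-1.01 to -0.76) is filled on the lower side with all 4 labels.

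Among 3 transcription factors known to act on these enzymes, ATF4, the activator of amino acid synthesis genes under amino acid shortage, was at 291, 319 and 308 CPM with GFP. It was at 216 to 218 CPM with ID1, 181 to 184 CPM with ID2, 173 to 193 CPM with ID3 and 211 to 218 CPM with ID4. Its mRNA fell by 0.51, 0.73, 0.79 and 0.52 on the log2 scale for ID1 to ID4 (adjusted p = 2.84e-07, 5.51e-10, 2.83e-10 and 3.02e-07 by edgeR's quasi-likelihood test), with no overlap with GFP. MYC passed with ID2 only by this threshold, at a log2 change of -0.49 (edgeR adjusted p = 0.0316) and 87 to 117 counts per ID2 library, and this call was lost without GFP library 1 or 3 or ID2 library 1 or 3. NFE2L2, the activator of antioxidant genes, had log2 changes of -0.13, 0.05, 0.02 and -0.08 and was not called. The 3 factors were also listed with earlier results of these data known, so their p-values are not free of selection. These libraries measure the factors' mRNA and not their protein, and their part in the enzymes' levels was not tested.

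For the 3 enzymes with the widest range of group means, the genes with the most similar profile were found by Pearson's r of log2 CPM over the 15 libraries. The points share the library totals and 5 group means, so r describes the profile and has no p. For PSAT1 these were SLC7A5, a carrier of large neutral amino acids (r = 0.981), SLC5A3, a carrier of myo-inositol (r = 0.98), and USP7, a deubiquitinase (r = 0.979). The fitted log2 changes of SLC7A5 were -2.44, -3.56, -2.35 and -2.71 for ID1 to ID4, larger than those of PSAT1. USP7 changed by -0.40, -0.49, -0.40 and -0.41, so a similar profile did not mean a similar size.

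For PHGDH they were RPL13, a ribosomal protein (r = 0.975), AARS, the alanyl-tRNA synthetase (r = 0.973), and EIF2S2, a subunit of a translation initiation factor (r = 0.971). AARS had log2 changes of -0.80, -0.91, -0.80 and -0.68. For ALDH1L2 the values were lower, with FGF13 at 0.915, PCBP1 at 0.895 and BCKDK at 0.88, beside counts as low as 50 for ALDH1L2 itself.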

How the data were processed

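For each gene and library the authors deposited raw counts and log2 values that they had normalized across the libraries. Sequencing used the QuantSeq 3′ kit against hg19 (GRCh37). The submitters' processing notes name BWA and Bowtie2, and the counting tool and annotation are not given in the sources used here. Counts were fitted with edgeR 4.0.16 (R 4.3.3, TMM factors 0.978 to 1.026, common dispersion 0.00463, quasi-likelihood test) with 1 mean per group over all 15 libraries. The 12870 genes in the upper 50% by mean deposited log2 value (3.22 or more) were tested, with Benjamini-Hochberg adjustment and a threshold of 0.05. The members and lists were chosen with earlier results of these data known. Of each list, the 3 called genes with the largest change against GFP are named, with TYMS besides, and the regulators and markers in full. The 3 nearest profiles are given for the 3 enzymes with the widest range of group means. Alternatives were DESeq2 1.42.0, limma 3.58.1 with trend on the deposited log2 values, other scalings and filters, only the 2 groups compared, a fold over 2, the replicate number as a block and leaving out each library. An item of the folate list is not reported here and is left out of the counts of that list. Tools were tested on simulated data. Gene positions came from GENCODE lifted to GRCh37, and promoters from RefSeq. Figures used matplotlib 3.10.9.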

Additional observations from a re-analysis of the deposited data

How the results depend on the processing

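The changes of the 9 enzymes carry no test, and 496 of 496 refitted values moved by less than the SD between replicates, which leaving out 1 of 3 libraries can hardly exceed. ALDH1L2 with ID2 was -0.46 without GFP library 1, -0.51 without GFP library 3 and -0.35 without ID2 library 3, and PSPH with ID4 was -0.35 without GFP library 1. Values near 0 changed sign, and MTHFD1L with ID1 was 0.003 with library totals alone. Over the main fit and all alternatives, the ranges with ID1 were -0.041 to 0.04 for SHMT1 and -0.077 to 0.045 for MTHFD1L. With ID2 they were -0.004 to 0.125 for MTHFD1 and -0.109 to 0.002 for MTHFD1L. With ID3 they were -0.019 to 0.076 for SHMT1 and -0.116 to 0.014 for MTHFD1. A fold over 2 besides the adjusted p left 384, 569, 376 and 323 genes and 1, 1, 0 and 0 other pathway genes against GFP for ID1 to ID4. Among the ID labels it left 155 (ID2 and ID1), 64 (ID3 and ID1), 151 (ID3 and ID2), 72 (ID4 and ID1), 214 (ID4 and ID2) and 105 genes (ID4 and ID3). With the upper 25% of genes, 2 other pathway genes were called with ID1 and 2 with ID4, and ALDH1L2 and PSPH were below this limit. CTH, GLYCTK, MTHFS, FOLR3 and MTRR were below it too, so their calls were not tested with this filter. With only the 2 groups compared, 7 other pathway genes were called with ID2, and 1073 genes between ID3 and ID2 and 1064 between ID4 and ID1. Leaving out 1 library gave 4 to 6, 8 to 13, 3 to 6 and 4 to 5 other pathway genes for ID1 to ID4 (4 of 7 without ID1 library 1 and 8 of 13 without GFP library 1 with ID2), and 634 to 1165 genes between ID3 and ID1, 363 to 423 between ID4 and ID1 and 800 to 1377 between ID4 and ID3. Of 476 refitted changes of other named genes that were called, 410 kept their call and 66 lost it. With the replicate block, 2713, 4361, 3517 and 2585 genes were called against GFP for ID1 to ID4, in place of 2849, 4519, 3685 and 2775. The deviations of libraries with the same number from their group means had correlations of -0.29 to 0.276 between groups. With 3 libraries per group these values cannot show whether such libraries were handled together.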
